A study of Mus musculus with 6 samples.

Results

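Solute carriers are membrane proteins that move amino acids, sugars, ions, metals, nucleosides, vitamins and other small molecules across the cell surface or the membranes of organelles, without spending ATP directly. Their genes are numbered by family, and a family usually shares a fold and often a class of substrate. Lymphocytes rely on them for glutamine and leucine uptake, for glucose entry and lactate release, and for the exchange of phosphate and nucleotides across the mitochondrial membrane. Red-cell precursors rely on them for the iron and glycine that haem synthesis consumes.

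The genes described here were those whose mouse symbol is Slc followed by a family number, a letter and a member number. The tables held 361 such genes. Slc4a1, Slc40a1 and Slc11a1 were left out by the rule, and of the other 358 a further 143 stayed under 1 CPM (counts per 1000000 counts of the library) in all 6 libraries, 59 of them with no counts at all. This left 215 genes of 44 families, out of 55487 genes in the tables. Of the 215, 189 reached 1 CPM in both tissues, 23 only in spleen and 3 only in mLN. Just inside the limit were Slc12a8 at 1.03 CPM and Slc5a9 at 1.051 CPM in their highest library, and just outside it Slc6a13 at 0.866 CPM and Slc1a3 at 0.852 CPM.

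PolyA RNA was sequenced from total haematopoietic cells, sorted for CD45 and freshly prepared, from mesenteric lymph nodes (mLN, which receive lymph from the intestine) and from spleens of wild-type C57BL6/J mice, with 3 libraries of each tissue. No age is given, nor whether each library stands for its own mouse. The p-values below therefore speak only of the spread among 6 libraries, and that spread may be technical. Libraries held 12584244 to 18119551 expected counts. Ptprc, the gene of CD45, averaged 2675 ± 34.99 CPM in mLN and 2191 ± 38.96 CPM in spleen (SD, n = 3 each). Marker genes set the context for what follows. The summed level of 8 T-cell markers was 1859 to 1901 CPM in mLN against 804.9 to 815.9 CPM in spleen, and that of 8 B-cell markers 3410 to 3464 CPM against 5887 to 6033 CPM. Erythroid markers (10 genes) summed to 18.3 to 24.5 CPM in mLN against 2048 to 2145 CPM in spleen, with Car1 and Rhag among those at 0 in mLN. Neutrophil markers (8 genes) summed to 4.21 to 4.87 CPM against 1289 to 1316 CPM, and cell cycle markers (7 genes) to 358 to 376 CPM against 802 to 831 CPM. In RNA of mixed cells, fewer cells of a type and less RNA per cell cannot be told apart.

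The transporter genes as a whole took a small part of the RNA in both tissues. Their summed level per library depth was 8727, 8784 and 8906 CPM in the mLN libraries and 8876, 8791 and 8755 CPM in the spleen libraries, which overlapped. Per transcript length, the 215 genes held 0.544% to 0.563% of the deposited TPM (transcript abundance per length, with an equal sum in every library) in mLN and 0.568% to 0.581% in spleen, with every mLN library under every spleen library on this scale. The 10 highest genes held 35.9% to 36.8% of that sum in mLN and 33.8% to 34.5% in spleen. At the other end, 24 of the 215 genes averaged under 1 TPM over the 6 libraries.

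The most abundant transporter by TPM was Slc25a3, the phosphate carrier of the mitochondrial inner membrane (chromosome 10, 91116574 to 91124059, GRCm38). It averaged 448 ± 12.5 TPM in mLN and 454 ± 9.74 TPM in spleen (SD, n = 3 each). Slc25a5, an ADP/ATP carrier, followed at 356 ± 5.31 and 356 ± 13.6 TPM. It is closely related to Slc25a4, and reads shared by close copies were split by a model. Next came Slc44a2, a choline transporter-like gene, at 317 ± 8.58 TPM in mLN and 259 ± 4.48 TPM in spleen. Slc1a5, the sodium-coupled importer of glutamine and other neutral amino acids, averaged 135 ± 4.21 TPM in mLN and 147 ± 8.56 TPM in spleen. Also among the first 10 were Slc35a4, Slc20a1, Slc39a7, Slc28a2 and Slc50a1, each between 106 and 150 TPM in either tissue. Of these, Slc44a2 and Slc20a1 were higher in mLN by edgeR, while Slc25a3, Slc25a5, Slc1a5, Slc35a4, Slc39a7, Slc28a2 and Slc50a1 did not pass the test.

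Each gene was tested between the tissues with edgeR on the counts, with p-values adjusted over all 14427 genes tested and fold changes given as log2 of mLN over spleen. Of the 215 transporter genes, 209 passed the filter on low counts. Of these, 44 were higher in mLN (21.1%), where 21.8% of all tested genes were higher, and 68 were lower (32.5%), where 23.8% of all tested genes were lower. The share that rose was thus near that of genes at large, and the share that fell was above it. A gene entered by reaching 1 CPM in any library, and 23 entered through spleen alone against 3 through mLN alone. The counts are thus partly set by that rule, and they describe the genes and test nothing. At a change of at least 2-fold, 5 rose (3.67% of all tested genes did) and 21 fell (8.6% of all tested genes did). Over the 183 genes that averaged at least 1 CPM in both tissues, 5 rose and 8 fell by that much, so most of the 21 averaged under 1 CPM in mLN. The median log2 fold change over the 209 was -0.07, against -0.002 over all tested genes. The libraries of the tissues did not overlap in CPM for 121 of the 209 (57.9%, against 52.9% of all tested genes).

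Falls outnumbered rises most among genes expressed at a low level. Among the 68 tested members that averaged under 10 CPM, 27 fell and 5 rose (39.7% and 7.35%, where 24.03% and 10.7% of all genes at that level did). Among the 89 that averaged 10 to 50 CPM, 28 fell and 22 rose (31.5% and 24.7%, where 24.97% and 18.4% of all genes did). Among the 52 that averaged at least 50 CPM, 13 fell and 17 rose (25% and 32.7%, where 22.3% and 37.6% of all genes did). Genes that entered through spleen alone reached the limit in that tissue only, so these shares describe the genes and test nothing. Over the 183 genes described above, 55 fell and 44 rose (30.1% and 24.04%). The shares of all genes under the same condition were not computed.

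**Figure D1:**
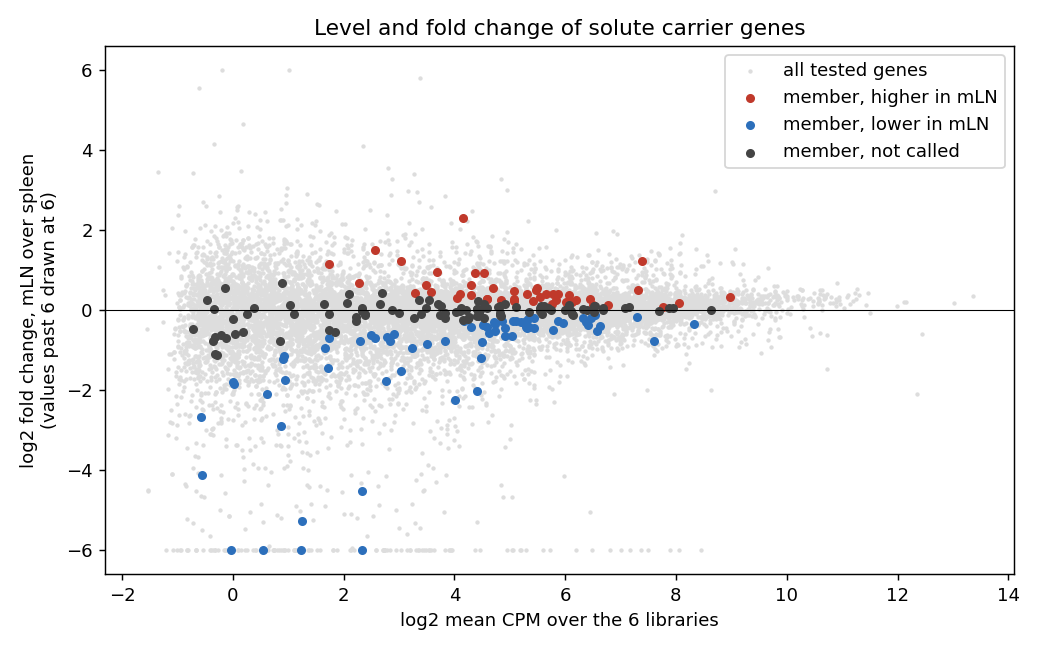
Log2 fold change (mLN over spleen, vertical) against log2 mean CPM over the 6 libraries (horizontal), with each dot a gene: grey for all 14427 tested genes, and coloured or black for the 209 tested solute carrier genes. The lowest blue dots, drawn at -6, are the 4 transporter genes with no counts in mLN, and the highest red dot is Slc16a5 at 2.29.

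Of the 21 genes that were at least 2-fold lower, 4 had no counts in any mLN library. These 4 entered through spleen alone, so their folds and p-values describe them and are no support for a fall of the group. Slc38a5, a glutamine and neutral amino acid transporter (chromosome X, 8271133 to 8280179), stood at 0, 0 and 0 CPM in mLN and at 10.8, 9.38 and 10.2 CPM in spleen. Against a floor of 3 counts over the mLN libraries it was at least 152-fold lower (adjusted p = 3.50e-19). Slc25a21, a mitochondrial carrier of oxodicarboxylates (chromosome 12, 56712634 to 57197472), stood at 0 in mLN and at 3.68, 4.45 and 5.92 CPM in spleen, at least 70.2-fold lower, and overlaps Pax9 on the opposite strand. Slc30a10, which belongs to the zinc exporter family and exports manganese (chromosome 1, 185454848 to 185468762), was at least 43.7-fold lower, with 3.45, 2.92 and 2.33 CPM in spleen. The fourth was Slc2a4, the insulin-responsive glucose transporter, at 1.495, 1.95 and 2.39 CPM in spleen and at least 29.2-fold lower. All 4 moved in the direction of the erythroid and neutrophil markers, whose sums are given above. Plasma-cell markers moved that way too (397 to 415 CPM in mLN, 1056 to 1066 CPM in spleen). So did the sums of the B-cell, macrophage, dendritic-cell and cell cycle markers. The part of any of these cells in the result was not tested.

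Further genes were close to the limit of detection in mLN. Those named here also entered through spleen alone, so their values are description in the same way. Slc6a9, the glycine transporter of red-cell precursors and nerve cells (chromosome 4, 117834506 to 117875198), stood at 0.400, 0.619 and 0.162 CPM in mLN and at 8.11, 9.63 and 11.5 CPM in spleen (log2 fold change -4.52, SE 0.305, adjusted p = 2.47e-16). The gene overlaps B4galt2 and Ccdc24 on the opposite strand, and the strand setting of the counting is not given in the sources used here. Slc22a3, an organic cation transporter, was at 0, 0.0562 and 0.324 CPM in mLN and at 4.20, 5.79 and 3.83 CPM in spleen (-5.26, adjusted p = 2.27e-11), and overlaps Plg on the opposite strand. Slc35d3, a nucleotide sugar transporter relative needed for platelet dense granules, had 3 counts in mLN and 65 in spleen, a ratio of 19.3 (95% interval 6.33 to 96.2, which covers counting error only). Slc22a4, the ergothioneine transporter, stood at 0.467, 0.281 and 0.567 CPM in mLN and at 3.33, 2.62 and 3.65 CPM in spleen (-2.89, adjusted p = 3.81e-07).

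A pair of genes of the Slc43 family fell together from a higher level. Slc43a1, a transporter of large neutral amino acids (chromosome 2, 84838850 to 84863594), stood at 5.94, 5.51 and 5.26 CPM in mLN and at 24.7, 28.4 and 26.7 CPM in spleen (log2 fold change -2.25, SE 0.128, adjusted p = 8.68e-19). Slc43a3, a purine nucleobase transporter (chromosome 2, 84936579 to 84958509), stood at 7.74, 9.22 and 8.18 CPM in mLN and at 36.3, 37.6 and 28.2 CPM in spleen (-2.01, SE 0.119, adjusted p = 3.26e-18). No mLN library came near a spleen library for either gene. They lie 72984 bases apart on the same strand. The remaining member, Slc43a2, another transporter of large neutral amino acids, averaged 103 ± 3.05 CPM in mLN and 103 ± 3.96 CPM in spleen and did not pass the test (-0.005, SE 0.047).

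**Figure D2:**
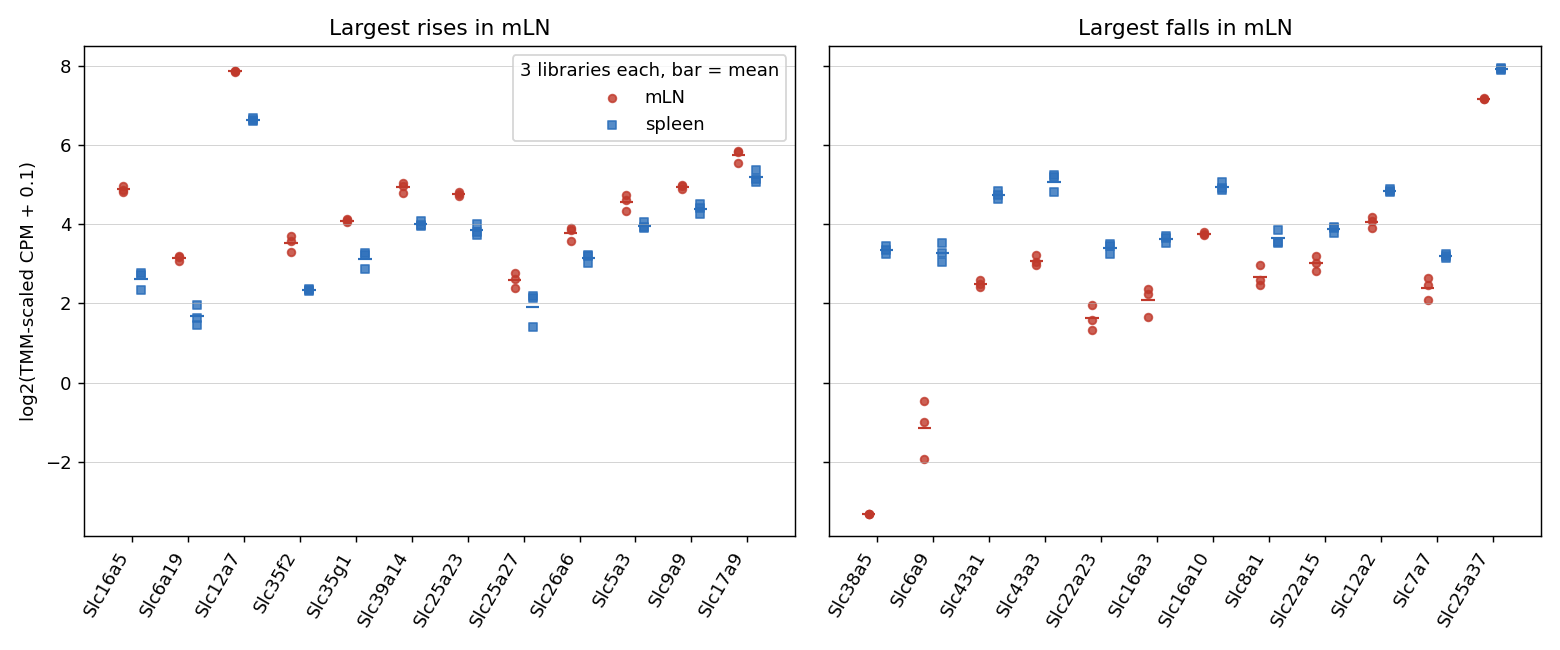
Level of each library as log2 of TMM-scaled CPM plus 0.1 (vertical) for the 12 largest rises (left) and the 12 largest falls (right) among called genes whose tissues do not overlap and of which one reaches 5 CPM. Red circles are the 3 mLN libraries, blue squares the 3 spleen libraries and bars the means; Slc38a5 lies at the bottom in mLN because all 3 libraries were at 0.

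To show sequence at annotated starts of these genes, promoter windows of 300 bases (250 before to 50 after a transcription start, RefSeq, GRCm38.p6) are given for 4 genes that fell and for Slc12a7, a large rise described below. Of the 215 genes, 164 had a window in the table. Each line gives the most upstream start in RefSeq, 5′ to 3′ on the strand of the gene, and the genes were chosen after their values were seen. These starts need not be the first base of the gene as GENCODE gives it: the window of Slc12a7 lies well inside the gene span printed for it below. Capitals mark words that GATA factors of blood cells are known to bind, searched on both strands. The first search used AGATAA together with TGATAA. The wider search, which the capitals show, also took AGATAG together with TGATAG. It was chosen after the first search had found 0 words in these windows and after the sequences had been seen.
Slc38a5, chrX:8271131-8271430, plus strand: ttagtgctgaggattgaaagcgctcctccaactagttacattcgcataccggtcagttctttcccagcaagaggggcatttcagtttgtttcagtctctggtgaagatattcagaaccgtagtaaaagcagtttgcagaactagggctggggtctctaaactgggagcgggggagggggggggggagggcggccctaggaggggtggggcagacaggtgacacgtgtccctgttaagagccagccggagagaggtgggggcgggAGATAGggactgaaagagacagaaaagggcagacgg
Slc25a21, chr12:57197423-57197722, minus strand: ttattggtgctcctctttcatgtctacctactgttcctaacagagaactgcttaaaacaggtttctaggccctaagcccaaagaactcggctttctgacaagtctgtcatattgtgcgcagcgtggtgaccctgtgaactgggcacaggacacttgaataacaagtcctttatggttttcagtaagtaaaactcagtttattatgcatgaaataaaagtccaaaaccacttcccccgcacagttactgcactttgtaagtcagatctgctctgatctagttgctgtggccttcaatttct
Slc6a9, chr4:117835008-117835307, plus strand: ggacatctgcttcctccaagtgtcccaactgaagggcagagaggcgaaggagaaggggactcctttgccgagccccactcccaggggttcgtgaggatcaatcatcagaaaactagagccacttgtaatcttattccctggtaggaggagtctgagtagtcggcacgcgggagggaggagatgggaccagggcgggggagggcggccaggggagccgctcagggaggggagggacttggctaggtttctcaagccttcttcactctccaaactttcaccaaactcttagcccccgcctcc
Slc43a1, chr2:84840073-84840372, plus strand: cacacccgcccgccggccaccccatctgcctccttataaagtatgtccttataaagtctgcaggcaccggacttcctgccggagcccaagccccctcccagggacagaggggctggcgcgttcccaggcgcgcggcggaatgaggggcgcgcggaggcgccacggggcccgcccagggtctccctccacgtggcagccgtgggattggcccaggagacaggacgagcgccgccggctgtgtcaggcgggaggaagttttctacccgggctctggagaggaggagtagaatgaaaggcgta
Slc12a7, chr13:73763410-73763709, plus strand: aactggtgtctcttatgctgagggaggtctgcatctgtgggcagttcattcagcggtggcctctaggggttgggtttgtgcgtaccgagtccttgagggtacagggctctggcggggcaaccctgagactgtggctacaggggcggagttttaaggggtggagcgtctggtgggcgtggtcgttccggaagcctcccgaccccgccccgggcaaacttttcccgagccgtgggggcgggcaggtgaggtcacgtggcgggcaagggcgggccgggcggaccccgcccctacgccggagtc
In the wider search 1 word was found, in the window of Slc38a5, and it is one of those added, so it is no support for anything. By the first search 34 of 221 windows of the transporter genes (15.4%) held a word, against 18.6% of all 32851 RefSeq windows. A gene can have several windows, and these shares count windows. The share was 26.7% (8 of 30 windows, from 19 genes) for genes at least 2-fold lower. It was 17.8% (8 of 45 windows, from 32 genes) for genes that were higher. By the wider search 50 of 221 windows (22.6%) held one, against 29.8% of all, with 33.3% (10 of 30) for genes at least 2-fold lower and 28.9% (13 of 45) for those that were higher. Over all lower genes the share was 21.3% by the first and 26.7% by the wider search, and over genes not called 8.51% and 13.8%. A match is a description of letters, not a binding site.

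The largest rise was that of Slc16a5, a monocarboxylate transporter family member (chromosome 11, 115462474 to 115474398). It stood at 28.2, 31.4 and 29.2 CPM in mLN and at 6.44, 6.76 and 4.96 CPM in spleen (log2 fold change 2.29, SE 0.126, adjusted p = 2.91e-19). Slc12a7, a potassium and chloride cotransporter that lets cells shed volume (chromosome 13, 73733094 to 73816754), was the most abundant gene among the large rises. It stood at 232, 236 and 235 CPM in mLN and at 99.51, 103 and 97.3 CPM in spleen (1.23, SE 0.037, adjusted p = 5.35e-28). Slc6a19, a neutral amino acid transporter best known from gut and kidney epithelium (chromosome 13, 73679745 to 73704865), stood at 8.34, 8.89 and 9.15 CPM in mLN and at 2.99, 2.62 and 3.77 CPM in spleen (1.49, SE 0.205, adjusted p = 6.51e-08). It lies 28228 bases from Slc12a7 on the opposite strand, and an antisense gene, Slc6a19os, overlaps it. Slc35f2, of the nucleotide sugar transporter family, averaged 11.5 ± 1.67 CPM in mLN and 4.95 ± 0.109 CPM in spleen (1.22, adjusted p = 8.08e-08). T-cell marker sums were higher and B-cell marker sums lower in mLN beside these rises, and their part was not tested.

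Of 13 pairs of transporter genes that lie within 100000 bases of each other, both were higher in 2 pairs and both lower in 1. The higher pairs were Slc6a19 with Slc12a7 and Slc38a1 with Slc38a2, and the lower pair was Slc43a1 with Slc43a3. The call of Slc38a1 was lost under several alternatives, as given below. Such counts were not computed over all pairs of neighbouring genes, so they are description only. In 1 pair the genes went opposite ways. Slc22a4 was lower, while Slc22a5, the main carnitine importer, averaged 22.2 ± 2.42 CPM in mLN and 17.3 ± 1.84 CPM in spleen (0.37, adjusted p = 0.0053, but 0.108 with the effective-length offset, which enters each library's own estimated gene lengths into the fit).

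**Figure D3:**
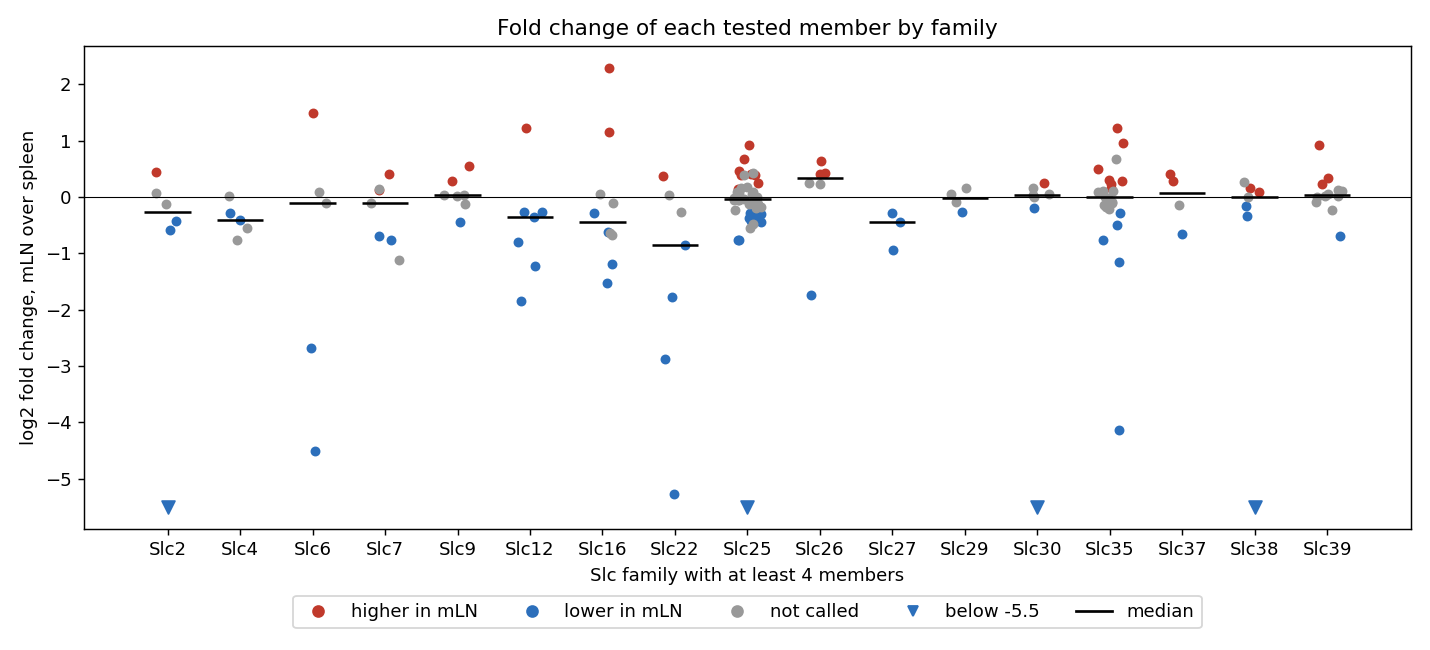
Log2 fold change (mLN over spleen, vertical) of each tested gene in the 17 families with at least 4 members (horizontal), coloured by the edgeR call, with a black bar at the family median. Triangles mark the 4 genes with fitted values below -5.5, which had no counts in mLN; Slc12 has called genes only, 6 below and 1 above 0.

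The cation and chloride cotransporters of family Slc12 set the volume and the chloride level of a cell, by loading or shedding salt. All 7 tested members were called, 6 lower and 1 higher, with a median log2 fold change of -0.35, where 23.8% of all tested genes were lower and 21.8% higher. The higher one was Slc12a7, described above. Slc12a2, the loader of sodium, potassium and chloride, averaged 16.6 ± 1.54 CPM in mLN and 28.8 ± 0.870 CPM in spleen (-0.80, adjusted p = 7.14e-09). It was lower in every mLN library than in any spleen library. Slc12a5 and Slc12a3 were at least 2-fold lower at levels under 3 CPM. Slc12a5 entered through spleen alone, so its fall is description and no support for a fall of the family. The calls for Slc12a4 (-0.27) and Slc12a9 (-0.26) did not survive the effective-length offset (adjusted p = 0.139 and 0.228). Without spleen replicate 3 that of Slc12a4 was lost (0.0748), and without mLN replicate 2 that of Slc12a9 (0.0645). The summed level of the family nevertheless was 582 to 603 CPM in mLN and 555 to 572 CPM in spleen.

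The monocarboxylate transporters of family Slc16 carry lactate, pyruvate and, in some members, amino acids or hormones. Of 10 tested, 2 rose and 4 fell, with a median of -0.45, where 23.8% of all tested genes were lower and 21.8% higher. Slc16a3, the lactate exporter of glycolytic cells, stood at 3.07, 5.06 and 4.62 CPM in mLN and at 12.9, 11.5 and 12.4 CPM in spleen (-1.52, SE 0.177, adjusted p = 1.27e-09). Slc16a10, a transporter of aromatic amino acids, averaged 13.5 ± 0.315 CPM in mLN and 30.9 ± 2.35 CPM in spleen (-1.20, adjusted p = 2.67e-13). The widely expressed lactate transporter gene Slc16a1 fell less, to 35.2 ± 0.912 CPM in mLN, against 42.8 ± 2.01 CPM in spleen (-0.28, adjusted p = 0.00183). Slc16a7 passed at -0.62 (adjusted p = 0.0123), but not with the effective-length offset (-0.39, adjusted p = 0.668), without spleen replicate 3 (0.094) and without mLN replicate 2 (0.0577).

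Of a list of 7 genes for glucose and lactate, 4 were lower and 0 higher, with a median of -0.28, where 23.8% of all tested genes were lower and 21.8% higher. The main glucose transporters did not pass. Slc2a1, the basal glucose transporter, averaged 47.5 ± 1.72 CPM in mLN and 45.5 ± 3.60 CPM in spleen (log2 fold change 0.06, SE 0.072, adjusted p = 0.509). Slc2a3, the high-affinity glucose transporter, averaged 67.7 ± 1.70 CPM in mLN and 73.7 ± 4.34 CPM in spleen (-0.12, SE 0.058, adjusted p = 0.0841). Without spleen replicate 1 Slc2a3 passed the test (adjusted p = 0.0272). Slc2a6, a glucose transporter relative of macrophages, was lower (-0.43, adjusted p = 0.000919, but 0.128 with the effective-length offset). Slc2a9, a urate transporter, was higher (0.44, adjusted p = 0.0112, but 0.202 with that offset, 0.0651 without spleen replicate 1 and 0.139 without mLN replicate 3). Slc37a4, which takes glucose 6-phosphate into the endoplasmic reticulum, was not called. Of its relatives, Slc37a2 fell (23.4 ± 3.36 CPM in mLN, 36.9 ± 3.07 CPM in spleen) and Slc37a1 passed at 0.40 (adjusted p = 2.55e-06, but 0.0954 with the offset).

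Several amino acid importers that lymphocytes are known to use averaged above 100 CPM in both tissues. Of a list of 7 such genes, 3 rose and 1 fell, with a median of -0.00, where 21.8% of all tested genes rose and 23.8% fell. The fall was that of Slc43a1. Slc1a5 was at 200.2, 207 and 213 CPM in mLN and at 216, 208 and 204 CPM in spleen, and the tissues overlapped (log2 fold change -0.02, SE 0.035, adjusted p = 0.712). Slc38a2, a sodium-coupled glutamine and alanine importer, was at 282, 284 and 281 CPM in mLN and at 243, 263 and 249 CPM in spleen (0.17, SE 0.033, adjusted p = 5.03e-05). Its neighbour Slc38a1 averaged 224 ± 5.04 CPM in mLN and 211 ± 3.32 CPM in spleen, a log2 fold change of 0.09 that passed at an adjusted p of 0.032 but was -0.01 (adjusted p = 0.962) with the effective-length offset. The call was also lost with upper-quartile factors (0.0731), with no filter on low counts (0.0746), with DESeq2 (0.0505) and without spleen replicate 1, spleen replicate 2 or mLN replicate 2 (0.0987 to 0.145). Slc7a1, the importer of arginine and lysine, passed at 0.12 (adjusted p = 0.041), but failed under 8 of the alternatives run, with adjusted p from 0.0541 to 0.258. Slc1a4, an alanine and serine exchanger, was under 4 CPM in every library and was not called.

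The heavy chain gene Slc3a2, whose protein (CD98) carries a set of Slc7 light chains to the cell surface, stood at 91.2, 88.0 and 88.3 CPM in mLN and at 98.8, 97.4 and 95.4 CPM in spleen. The log2 fold change was -0.12 (SE 0.048, adjusted p = 0.0307). It did not pass with the effective-length offset (0.0728), with DESeq2 (0.0572), and without spleen replicate 1, spleen replicate 2, mLN replicate 2 or mLN replicate 3 (0.0694 to 0.0928). Over the heavy chain and 5 light chains, 1 gene rose and 3 fell, with a median of -0.12, where 23.8% of all tested genes were lower and 21.8% higher. Slc7a6, an exchanger of cationic for neutral amino acids, was at 58.9, 54.5 and 58.1 CPM in mLN and at 42.4, 38.8 and 47.9 CPM in spleen (0.41, SE 0.073, adjusted p = 9.35e-06). Slc7a7, an exchanger of the same kind known from macrophages and gut, was at 5.40, 6.19 and 4.13 CPM in mLN and at 9.37, 8.71 and 9.09 CPM in spleen (-0.77, SE 0.18, adjusted p = 0.000403, but -0.42 and 0.189 with the effective-length offset), and overlaps Oxa1l on the opposite strand. Slc7a5, the leucine importer of activated lymphocytes, averaged 70.0 ± 0.516 CPM in mLN and 63.8 ± 2.12 CPM in spleen (0.13, adjusted p = 0.0566), and passed without spleen replicate 2 (0.0488). Slc7a11, the cystine importer, stood at 2.05 ± 0.767 and 2.22 ± 0.295 CPM and was not called. Slc7a8, a light chain for neutral amino acids, was under 6 CPM and passed at -0.70 (adjusted p = 0.0371). It failed under 7 alternatives, with adjusted p from 0.0524 to 0.249, among them the replicate block (0.053).

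Transporters of iron, haem and the red cell, together with some of other substrates, made up a list of 10 genes. Of the 10, 8 were lower and 1 higher, with a median of -0.43, where 23.8% of all tested genes were lower and 21.8% higher. Those of other substrates include Slc22a4, of ergothioneine, and Slc25a39 and Slc25a40, of mitochondrial glutathione. Slc22a4 and Slc25a39 were among the lower, and the higher gene was Slc25a40. Slc6a9 and Slc22a4, both among the lower, entered through spleen alone. The list was also chosen with earlier results of these data known, so its count is no support for a theme. It leaves out Slc39a14, an importer of iron among other metals, which was higher (0.93), and its relative Slc39a8, which was lower (-0.70). The haem exporter gene Flvcr1, also outside it, was higher (0.25, adjusted p = 0.0388). All 10 genes of the list had no overlap between the tissues (52.9% of all tested genes had none), and their summed level was 394 to 415 CPM in mLN and 552 to 557 CPM in spleen. The largest share of that sum was Slc25a37, the mitochondrial iron importer of red-cell precursors (chromosome 14, 69241848 to 69285112). It stood at 143, 143 and 146 CPM in mLN and at 241, 245 and 247 CPM in spleen (-0.76, SE 0.035, adjusted p = 5.75e-22). Alas2, the first enzyme of haem synthesis in red cells, was at 0.400, 0.731 and 0.486 CPM in mLN and at 39.6, 42.9 and 40.7 CPM in spleen. It is 1 of the 10 erythroid markers, all of which were lower in mLN. The part of red-cell precursors in the level of Slc25a37 in either tissue was not tested. Slc25a28, the other mitochondrial iron importer, averaged 74.5 ± 1.70 CPM in mLN and 85.1 ± 4.55 CPM in spleen (-0.19, adjusted p = 0.00327, but 0.0715 with the effective-length offset). Slc25a38, which supplies mitochondria with glycine for haem, averaged 25.5 ± 3.37 CPM in mLN and 34.7 ± 2.02 CPM in spleen (-0.45, adjusted p = 5.42e-05).

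Glutathione import into mitochondria depends on Slc25a39 and Slc25a40, which went opposite ways. Slc25a39 averaged 34.8 ± 3.24 CPM in mLN and 46.6 ± 2.60 CPM in spleen (-0.42, adjusted p = 1.36e-05). Slc25a40 averaged 19.5 ± 0.814 CPM in mLN and 14.9 ± 1.86 CPM in spleen (0.40, adjusted p = 0.00449, but 0.0584 without spleen replicate 1). The haem transporter gene Slc48a1, which overlaps Hdac7 on the opposite strand, was lower (-0.43, adjusted p = 7.98e-06). Slc14a1, the urea transporter that carries a blood group in human red cells, averaged 37.1 ± 1.66 CPM in mLN and 43.1 ± 0.865 CPM in spleen (-0.22, adjusted p = 0.0144, but 0.0506 with the effective-length offset and 0.0627 without mLN replicate 3). Slc11a2, the proton-coupled iron importer, was not called (0.16, SE 0.085, adjusted p = 0.12).

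**Figure D4:**
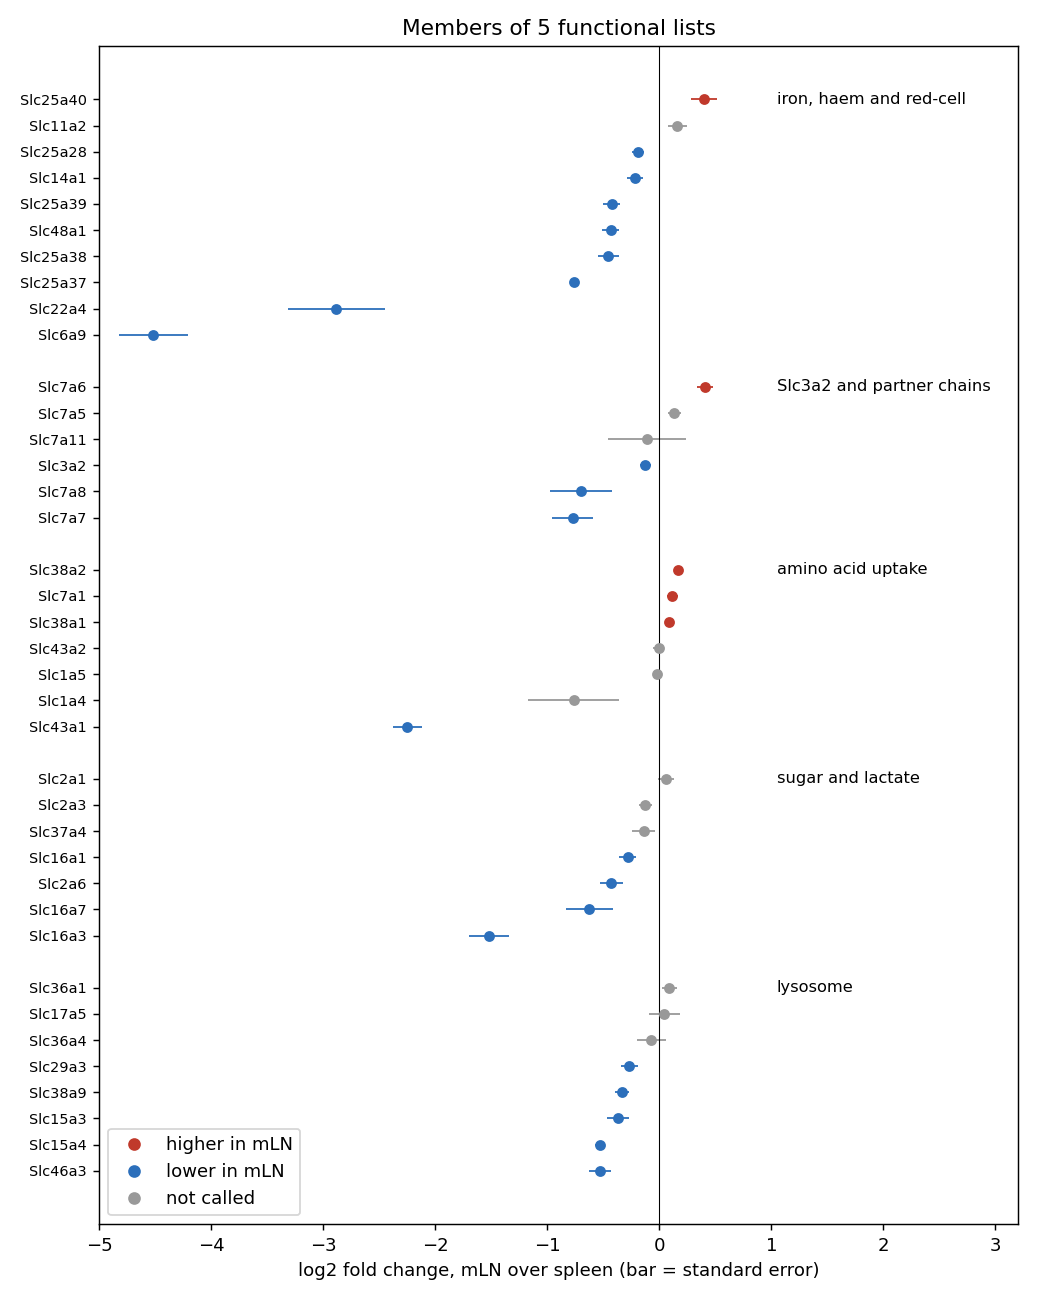
Log2 fold change (mLN over spleen, horizontal) with its standard error for every member of 5 functional lists, one gene a row, red for genes higher in mLN, blue for lower and grey for not called. In the iron, haem and red-cell list at the top 8 of 10 genes are blue, with Slc6a9 farthest left at -4.52, and in the lysosome list at the bottom 5 of 8 are blue and 0 red.

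Mitochondrial carriers of family Slc25 form the largest family, with 40 tested members. Of these, 8 were higher (20%) and 10 lower (25%), against 21.8% and 23.8% of all tested genes, and the median was -0.04. Slc25a21, among the lower, entered through spleen alone. With that limit, the family moved about as often as genes at large. Its summed level was 1962 to 2020 CPM in mLN and 2080 to 2120 CPM in spleen. The abundant carriers Slc25a3 (log2 fold change -0.007, SE 0.029) and Slc25a5 (0.05, SE 0.033) were not called. Slc25a23 and Slc25a24, carriers of ATP-magnesium for phosphate that calcium regulates, went opposite ways. Slc25a23 was at 26.2, 27.9 and 27.2 CPM in mLN and at 13.97, 16.1 and 13.2 CPM in spleen (0.91, SE 0.106, adjusted p = 1.13e-09), and overlaps Crb3 on the opposite strand. Slc25a24 averaged 10.5 ± 1.58 CPM in mLN and 17.8 ± 0.994 CPM in spleen (-0.76, adjusted p = 3.94e-06). Slc25a22, a glutamate carrier, was higher (0.38, adjusted p = 5.56e-07), as was Slc25a32, a folate carrier (0.47, adjusted p = 1.03e-05). The citrate carrier gene Slc25a1 was lower (-0.36, adjusted p = 0.00118), and so was the NAD carrier gene Slc25a51 (-0.29, adjusted p = 1.41e-05). Slc25a27, an uncoupling protein relative, passed at 0.67 and under 7 CPM (adjusted p = 0.0159), but not with the effective-length offset (0.0542), without spleen replicate 1 (0.146) and without mLN replicate 1 (0.0709).

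Lysosomal transporters return amino acids, peptides and nucleosides from the lysosome to the cytosol, and some anchor immune or nutrient sensing there. Of the list of 8, 5 were lower and 0 higher, with a median of -0.30, where 23.8% of all tested genes were lower and 21.8% higher. Slc38a9, an arginine sensor of the mTORC1 pathway, was at 55.4, 56.1 and 53.4 CPM in mLN and at 69.2, 68.8 and 70.2 CPM in spleen (-0.33, SE 0.06, adjusted p = 1.02e-05). Slc15a4, a histidine and peptide transporter that Toll-like receptor signalling in B cells and plasmacytoid dendritic cells requires, was at 79.9, 77.6 and 75.7 CPM in mLN and at 112, 116 and 108 CPM in spleen (-0.53, SE 0.048, adjusted p = 2.38e-12). With effective lengths as an offset Slc15a4 was not called (-0.69, adjusted p = 0.244), and the gene overlaps Glt1d1 on the opposite strand. Slc15a3, its relative, was lower as well (-0.36, adjusted p = 0.00199). Slc46a3 passed at -0.53 (adjusted p = 1.34e-05, but -0.33 and 0.102 with the offset). Slc29a3, a nucleoside transporter, had one of -0.27 with overlapping libraries (adjusted p = 0.00794), and its call was lost with the offset (0.0955), without mLN replicate 1 (0.0514) and without mLN replicate 2 (0.0608). Slc36a1, Slc36a4 and Slc17a5 were not called. The summed macrophage markers were 196 to 199 CPM in mLN and 247 to 256 CPM in spleen, and the summed dendritic-cell markers 70.2 to 75.0 CPM and 151 to 154 CPM. Of the 8 macrophage markers 4 were lower and 0 higher. C1qa, C1qb and C1qc were not called, at log2 fold changes of 0.32, 0.24 and 0.17. Of the 7 dendritic-cell markers 6 were lower and 0 higher. The part of these cells in the values of the lysosomal genes was not tested.

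Zinc transporters lower (Slc30) or raise (Slc39) the zinc of the cytosol. Of the 19 tested, 4 were higher (21.1%) and 3 lower (15.8%), with a median of 0.03, where 21.8% and 23.8% of all tested genes were. Slc30a10, among the lower, entered through spleen alone. Slc39a14, an importer of zinc, iron and manganese (chromosome 14, 70303469 to 70351425), stood at 33.1, 27.4 and 31.2 CPM in mLN and at 15.5, 16.9 and 15.6 CPM in spleen (0.93, SE 0.1, adjusted p = 2.13e-10). Its closest relative Slc39a8 went the other way, at 4.54 ± 0.482 CPM in mLN and 7.36 ± 0.290 CPM in spleen (-0.70, adjusted p = 0.00278). Slc39a7, which releases zinc from the endoplasmic reticulum, was not called (0.05, SE 0.039). Slc30a7, which loads zinc into the Golgi, passed at 0.25 (adjusted p = 0.000349, but 0.515 with the effective-length offset).

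Nucleotide sugar transporters of family Slc35 supply the Golgi with the building blocks of glycans. Of 23 tested, 7 were higher (30.4%) and 5 lower (21.7%), with a median of -0.01, where 21.8% and 23.8% of all tested genes were. Slc35d3, among the lower, entered through spleen alone. Slc35g1 stood at 16.6, 17.04 and 17.4 CPM in mLN and at 9.26, 9.63 and 7.23 CPM in spleen (0.96, adjusted p = 1.00e-07). Slc35c1, the GDP-fucose transporter on which selectin ligands depend, averaged 96.1 ± 3.78 CPM in mLN and 78.9 ± 0.580 CPM in spleen (0.28, adjusted p = 8.38e-06). Its relative Slc35c2 averaged 45.5 ± 3.15 CPM in mLN and 64.3 ± 3.99 CPM in spleen (-0.50, adjusted p = 5.14e-08). The transporters of activated sulphate likewise parted, Slc35b3 at 0.50 (adjusted p = 1.21e-07) and Slc35b2 at -0.29 (adjusted p = 0.00291, but -0.13 and 0.497 with the effective-length offset).

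Phosphate, choline and ion transporters held several changes at moderate levels. Slc20a1, a sodium-coupled phosphate importer (chromosome 2, 129198764 to 129211616), stood at 190.3, 176 and 198 CPM in mLN and at 132, 135 and 129.7 CPM in spleen (0.51, SE 0.04, adjusted p = 3.60e-14). Slc20a2, the other importer of this family, was lower (-0.42, adjusted p = 0.000414) and overlaps Smim19 on the opposite strand. Slc44a2 (chromosome 9, 21320698 to 21355028) stood at 565, 556 and 561 CPM in mLN and at 449, 454 and 434 CPM in spleen, the highest level in CPM of the 215 genes (0.33, SE 0.028, adjusted p = 2.62e-13). Of 5 calcium exchangers, 3 were lower and 0 higher, where 23.8% of all tested genes were lower and 21.8% higher, with Slc8a1, the sodium and calcium exchanger of the cell surface, at 6.38 ± 1.21 CPM in mLN and 12.5 ± 1.66 CPM in spleen (-0.95, adjusted p = 3.88e-06) and its mitochondrial relative Slc8b1 at -0.66 (adjusted p = 2.54e-08). Slc24a3, also among the lower, entered through spleen alone, so its fall is description. It lost its call (-1.80) with the effective-length offset (adjusted p = 0.0794) and without spleen replicate 1 (0.0733).

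Among exchangers of sodium for protons, which set the pH of endosomes and Golgi, Slc9a9 was higher (0.55, adjusted p = 2.99e-06) and Slc9a7 lower (-0.44, adjusted p = 2.65e-06). Of 11 transporters of bicarbonate, chloride and other anions, 3 were higher and 3 lower, where 21.8% and 23.8% of all tested genes were. Slc26a6, an exchanger of chloride for bicarbonate and oxalate, averaged 13.7 ± 1.63 CPM in mLN and 8.82 ± 0.677 CPM in spleen (0.64, adjusted p = 0.000267). Slc4a7, a sodium and bicarbonate cotransporter, averaged 84.9 ± 3.41 CPM in mLN and 113 ± 3.43 CPM in spleen (-0.41, adjusted p = 1.60e-09). The inositol transporter gene Slc5a3 was higher (0.62, adjusted p = 1.45e-05), but lies within Mrps6 on the same strand, whose reads can be shared. Slc17a9, which fills vesicles with ATP, was higher (0.55, adjusted p = 1.19e-06). The copper importer gene Slc31a1 was lower (-0.57, adjusted p = 1.50e-05), and overlaps Cdc26 on the opposite strand. Slc18a2, which fills vesicles with histamine and other amines in basophils, mast cells and platelets, averaged 1.76 ± 0.874 CPM in mLN and 4.80 ± 1.02 CPM in spleen (-1.46, adjusted p = 0.000158).

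Organic ion carriers of family Slc22 and fatty acid transporters of family Slc27 gave the following counts, where 23.8% of all tested genes were lower and 21.8% higher. Of 7 tested Slc22 genes 4 were lower and 1 higher, with a median of -0.85. Slc22a3 and Slc22a4, both among the lower, entered through spleen alone, so that count is partly set by the rule. Slc22a23 averaged 3.03 ± 0.690 CPM in mLN and 10.5 ± 0.992 CPM in spleen (-1.78, adjusted p = 3.48e-10), and Slc22a15 8.05 ± 1.09 CPM in mLN and 14.6 ± 0.722 CPM in spleen (-0.85, adjusted p = 2.79e-06). All 3 tested Slc27 genes, which activate and take up long-chain fatty acids, were lower. Slc27a4 averaged 33.5 ± 3.09 CPM in mLN and 45.7 ± 3.53 CPM in spleen (-0.45, adjusted p = 6.84e-06). Slc27a3 (-0.94, adjusted p = 0.00616) and Slc27a1 (-0.28, adjusted p = 0.039) did not survive the effective-length offset, at a log2 fold change of -0.40 for both (adjusted p = 0.330 and 0.0954), and Slc27a1 also failed with DESeq2 (0.0705) and when mLN replicate 1, mLN replicate 2 or spleen replicate 1 was left out (0.0562 to 0.233).

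Vitamin and nucleoside carriers feed cell division. All 7 cell cycle markers were lower in mLN, and the part of dividing cells in the values of these carriers was not tested. Of 7 vitamin transporters 2 were higher and 0 lower, where 21.8% and 23.8% of all tested genes were, and neither call was left with the effective-length offset. Slc23a2, a vitamin C transporter, averaged 74.7 ± 2.32 CPM in mLN and 65.4 ± 1.95 CPM in spleen (0.19, adjusted p = 0.00575), but was at -0.01 with that offset (adjusted p = 0.963). The other was Slc52a2, a riboflavin transporter (0.25, adjusted p = 0.0161, but 0.0943 with the effective-length offset, 0.0848 without spleen replicate 1 and 0.149 without mLN replicate 2). Of 5 nucleoside transporters 1 was lower, Slc29a3. Slc28a2, the concentrating purine nucleoside importer, stood at 244.5, 246 and 230.2 CPM in mLN and at 231, 231 and 232 CPM in spleen, with overlap (0.06, SE 0.034, adjusted p = 0.172). It passed without mLN replicate 3 (0.0345).

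Membrane transporters of other names were compared from a list of 42, of which 40 were tested. Of these, 10 were higher and 13 lower, where 21.8% and 23.8% of all tested genes were, with a median of -0.07. Genes of beta subunits of the sodium pump were among the rises. Atp1b3 averaged 355 ± 0.906 CPM in mLN and 187 ± 1.03 CPM in spleen (0.93, adjusted p = 1.91e-26), and Atp1b1 rose by 0.57. Slco3a1, an organic anion transporter, rose by 1.052. Among the falls were Unc93b1, which escorts Toll-like receptors to endosomes, at 316 ± 10.6 CPM in mLN and 588 ± 5.57 CPM in spleen (-0.90, adjusted p = 6.95e-27), and the sphingosine 1-phosphate exporter Spns2 (-0.83). The pyruvate carrier genes Mpc1 and Mpc2 of mitochondria were not called (-0.015 and -0.17).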

How the data were processed

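STAR, RSEM and mm10 are named, per the submitters' processing notes, while versions, annotation and strand setting are not stated there. For every gene of a library the authors deposited an expected count (shared reads are divided, so it need not be whole), TPM and, per the file headers, an effective length. TPM served for levels between genes. Symbols and coordinates come from GENCODE M21 (GRCm38, 1-based), which named 55227 of 55487 identifiers. Of the 215 genes, 40 overlap another coding gene, and their values, like those of close copies, are uncertain to that extent.

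Expected counts were rounded, filtered with filterByExpr and scaled by TMM factors. The tissues were compared with edgeR 4.0.16 (robust quasi-likelihood F-test) under R 4.3.3, adjusting by Benjamini-Hochberg across all 14427 genes, with a call under 0.05. Levels are TMM-scaled CPM. The limit for membership was on unscaled CPM.

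Genes, lists and substrate classes were chosen with earlier results of these data known. The naming rule took the 12 largest rises and falls of at least 5 CPM without overlap, the largest call each way per family of at least 4 and per substrate class, the 10 highest by TPM, and the lists. Some of these are given only in counts, and other genes named were chosen after their values were seen. Alternatives were RLE and upper-quartile factors, DESeq2 1.42.0, no filter, a stricter filter, leaving out receptor, globin, mitochondrial and ribosomal genes, an effective-length offset, a replicate block and leaving out each library. Some genes counted in the totals are not reported here by name. Floors and intervals cover counting error only.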

Additional observations from a re-analysis of the deposited data

How the results depend on the processing

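Counts of called genes moved most with effective lengths as an offset, which brings in how the isoform estimates differ between libraries. With it, 27 transporter genes were higher in mLN in place of 44, and 47 lower in place of 68, while the count of all genes called was 4645 in place of 6569. Of the 112 calls, 70 were kept, 42 lost and 0 reversed, and 4 were gained. The log2 fold changes of Slc38a1 and Slc23a2, both called higher, turned to -0.01. The cause was not tested. Under the other alternatives 97 to 112 of the 112 calls were kept and 0 reversed. Leaving out each replicate gave 35 to 42 higher and 64 to 67 lower transporter genes, and a count of all genes called of 5854 to 6322. DESeq2 gave 38 and 65. Whether replicate numbers pair the samples is not stated, and correlations this small cannot settle it. Deviations of same-numbered libraries correlated at 0.027, 0.028 and -0.008 over genes, and those of differently numbered libraries at -0.039 to 0.012. Replicates 1 and 2 of each tissue correlated best with their own number, while mLN replicate 3 and spleen replicate 3 did not. The replicate block gave 43 higher and 67 lower and changed no call described here but that of Slc7a8. A floor on the mean over all 6 libraries kept 196 of the 215 genes, with 44 higher and 65 lower. Depth limits genes of few counts, such as the 4 with 0 in mLN.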
